A study of Mus musculus with 2 samples.

Results

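Nupr1 and 9 genes of the integrated stress response were examined in mouse erythroid cells given siRNA against the corepressor ETO2. The 9 genes were Atf4, Ddit3, Trib3, Asns, Psat1, Chac1, Ddit4, Sesn2 and Gadd45a. The members were selected from values of this same comparison, as every probe that carries one of these names in the array files, so their values are a description and were not tested. They came to 10 genes and 12 probes, of 27745 genes and transcripts named on the array. The RNA was from G1E-ER-GATA-1, an erythroid line that is GATA-1-null and carries GATA-1 joined to a hormone-binding domain, which β-estradiol activates. Each of 2 arrays held RNA of cells given control siRNA (red dye, Cy5) and RNA of cells given siRNA against ETO2 (green dye, Cy3), the product of Cbfa2t3. Both groups carried the same fusion protein and had 24 h of β-estradiol, and 1.2 µg of total RNA was labelled per dye. All RNA came from 1 cell line, the dyes were never exchanged, and no array without β-estradiol was analysed here. The arrays are numbered as replicates but are not said to come from separate cultures. Every p-value therefore rests only on the spread between these arrays, largely pooled over all genes, and that spread may be technical.

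The integrated stress response starts when a kinase of the eIF2 family phosphorylates the translation factor eIF2, which lowers protein synthesis in general and raises translation of the transcription factor ATF4. ATF4 and its partner CHOP, encoded by Ddit3, then switch on genes for amino acid synthesis and import, for tRNA charging and for feedback on the response. Erythroid cells are rich in the haem-regulated kinase HRI, encoded by Eif2ak1, which ties globin synthesis to the supply of haem. Nupr1 encodes a small chromatin-associated protein that is induced by many kinds of cell stress and is a known target of ATF4.

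All values below are log2 ratios of ETO2 siRNA over control siRNA, or normalized log2 signals of the named dye channel, and levels are compared only within a probe. The targeted gene Cbfa2t3 had a ratio of -0.42 ± 0.05 (SD, n = 2), 74.6% of control, and a second probe read 85.6%. The median green spot (ETO2 siRNA) measured 82.8 and 77.5 scanner units and the median red spot (control) 105 on each array, over local backgrounds of 44 to 47. A probe was kept where either dye exceeded background well on both arrays, which held for 59.3% of 41174 probes and left 16585 genes to be tested. All 8 erythroid markers on the array were above background in both channels and all 8 rose, with summed signals of 247200 and 268200 after ETO2 siRNA against 133300 and 135400 in the control. The cell type label names embryonic stem cells. Of 7 markers of such cells, Nanog, Sox2 and Zfp42 were above background in no channel, Pou5f1 was above it on 1 array in each, and Esrrb, Dppa5a and Utf1 were above it throughout, with summed signals of 511 and 511 after ETO2 siRNA and 546 and 565 in the control. Genes listed as markers of other blood cells also moved with limma. Gp9 (1.19) and Pf4 (0.36) of 4 tested megakaryocyte markers rose. Of 4 genes tested in the mast cell list, Mcpt4 rose (0.49) and Kit fell (-0.98). The lymphocyte marker Cd3e (-0.26) fell, and 0 of 3 tested macrophage and granulocyte markers passed. The list that holds a gene does not say which cells its change came from. In a bulk sample, more cells at a mature stage and more RNA per cell cannot be told apart, and the part of these marker shifts in the ratios below was not tested.

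Nupr1 stood far from the other members. Its normalized log2 signal was 10.87 and 10.97 in the control channel of arrays 1 and 2, and 12.10 and 12.17 after ETO2 siRNA. Both ETO2 siRNA values lay more than a log2 unit above both control values. The ratios were 1.23 on array 1 and 1.20 on array 2, a mean of 1.22 ± 0.018 (SD, n = 2) or 2.32-fold, rank 17 of the 16585 genes tested. The reading rests on a single probe against transcript NM_019738, whose opening 30 of 60 bases are shown because no second probe of Nupr1 was on the array to compare with.
Nupr1 probe: caatggatacaggacatcacacccagcaat

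**Figure D1:**
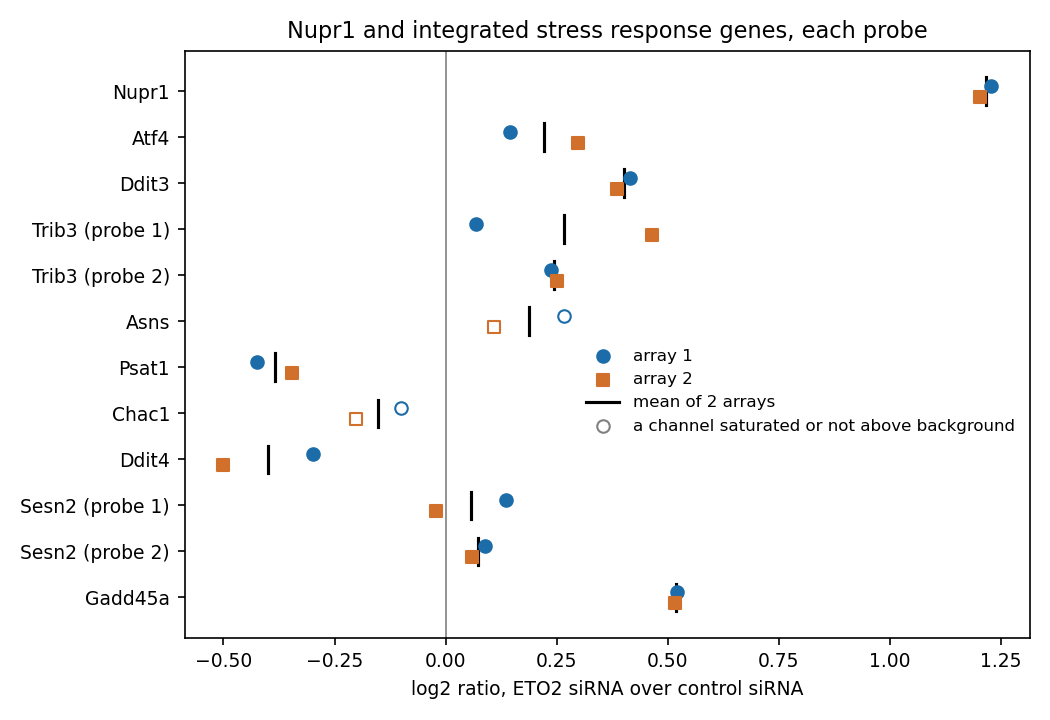
Log2 ratio of ETO2 siRNA over control siRNA for the 12 probes of the 10 members, with one symbol per array and a bar at the mean. Nupr1 sits at 1.20 to 1.23 on both arrays, the other probes lie between -0.50 and 0.52, and open symbols mark probes with a saturated channel (Asns) or a channel not above background (Chac1).

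Atf4, the transcription factor at the centre of the response, was a little higher after ETO2 siRNA. Its log2 signal was 11.21 and 10.95 in the control and 11.36 and 11.24 after ETO2 siRNA. The lower ETO2 siRNA value was only just above the higher control value, so the channels did not overlap but nearly touched. The ratios were 0.15 and 0.30, a mean of 0.22 ± 0.11 (SD, n = 2) or 1.17-fold. Much of the control of Atf4 is known to act on its translation, which an array of RNA does not measure.

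Ddit3, which encodes the pro-apoptotic factor CHOP, was higher on both arrays by nearly the same amount. Its log2 signal was 12.75 and 12.70 in the control and 13.17 and 13.09 after ETO2 siRNA, with no overlap. The ratios were 0.42 and 0.39, a mean of 0.40 ± 0.02 (SD, n = 2) or 1.32-fold.

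Trib3, a pseudokinase that is induced by ATF4 and CHOP and restrains ATF4, was read by a pair of probes whose sequences are shown because their ratios varied unlike each other. The first gave ratios of 0.07 and 0.47, a mean of 0.27 ± 0.28 (SD, n = 2), and the second gave 0.24 and 0.25, a mean of 0.24 ± 0.0087 (SD, n = 2). Their means were close, but the spread of the first probe was as large as its mean. On that probe the ETO2 siRNA signal was nearly the same on both arrays, 12.26 and 12.26, and it was the control signal that differed, 12.19 on array 1 and 11.80 on array 2. The second probe had control signals of 9.04 and 8.97 and ETO2 siRNA signals of 9.28 and 9.22. On neither probe did the channels overlap.
Trib3 probe 1: aaagaggcatttgactcaaggaatagtctg
Trib3 probe 2: aatcctcttgcatccctggttgagagagga

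The metabolic members did not share a direction. Asns encodes asparagine synthetase, a classical ATF4 target, and its control spot was saturated on both arrays, at 65221 and 64346 scanner units. Its ratios of 0.27 and 0.11 (mean 0.19 ± 0.11, SD, n = 2) therefore carry no fold, since the true control level may lie above the reading. Psat1, which encodes the aminotransferase of serine synthesis, was lower on both arrays. Its log2 signal was 14.10 and 14.04 in the control and 13.67 and 13.70 after ETO2 siRNA, with no overlap. The ratios were -0.42 and -0.35, a mean of -0.38 ± 0.06 (SD, n = 2), or 76.6% of control. Chac1 encodes an enzyme that breaks down glutathione and is a known target of the ATF4 and CHOP branch. It was not well above background after ETO2 siRNA on either array, with log2 signals of 6.19 and 6.24 against 6.29 and 6.44 in the control. Taking the dim channel no lower than the lowest signal well above background raised array 1 only, to 6.20. The control then read 1.10-fold higher, against 1.11-fold without this step. It is not a firm bound, since it is open to dye bias and the ratio was -0.07 with median centring.

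Ddit4 and Sesn2 both encode stress-induced inhibitors of the growth kinase complex mTORC1, and they differed from each other. Ddit4 had log2 signals of 14.36 and 14.39 in the control and 14.06 and 13.89 after ETO2 siRNA, with no overlap. Its ratios were -0.30 and -0.50, a mean of -0.40 ± 0.14 (SD, n = 2), or 75.8% of control. Sesn2 was close to 0 on both of its probes, whose sequences are shown because they read different transcript records, NM_144907 and AK170547. The first gave 0.13 and -0.02, with overlapping channels. The second gave 0.09 and 0.06, a mean of 0.07 ± 0.02 (SD, n = 2), with control signals of 12.77 and 12.84 just below ETO2 siRNA signals of 12.86 and 12.90.
Sesn2 probe 1: agcccgtggtggtctccctgctgtctgaag
Sesn2 probe 2: gtggggaagggcatccagtgttaaagtgca

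Gadd45a, a growth arrest and DNA damage gene that p53 and ATF4 both induce, was next to Nupr1 in size and was the most even of the members between arrays. Its log2 signal was 13.50 and 13.52 in the control and 14.03 and 14.04 after ETO2 siRNA. The ratios were 0.52 and 0.52, a mean of 0.52 ± 0.0028 (SD, n = 2) or 1.43-fold. A further probe, listed in the array files under the name E230016M11Rik and described there as a Gadd45a product, read -0.02 and 0.04 and is no member by name. The Gadd45a probe itself is shown because the readings of these probes differ.
Gadd45a probe: aagggacaaaaactacaaagcactgcaaga

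**Figure D2:**
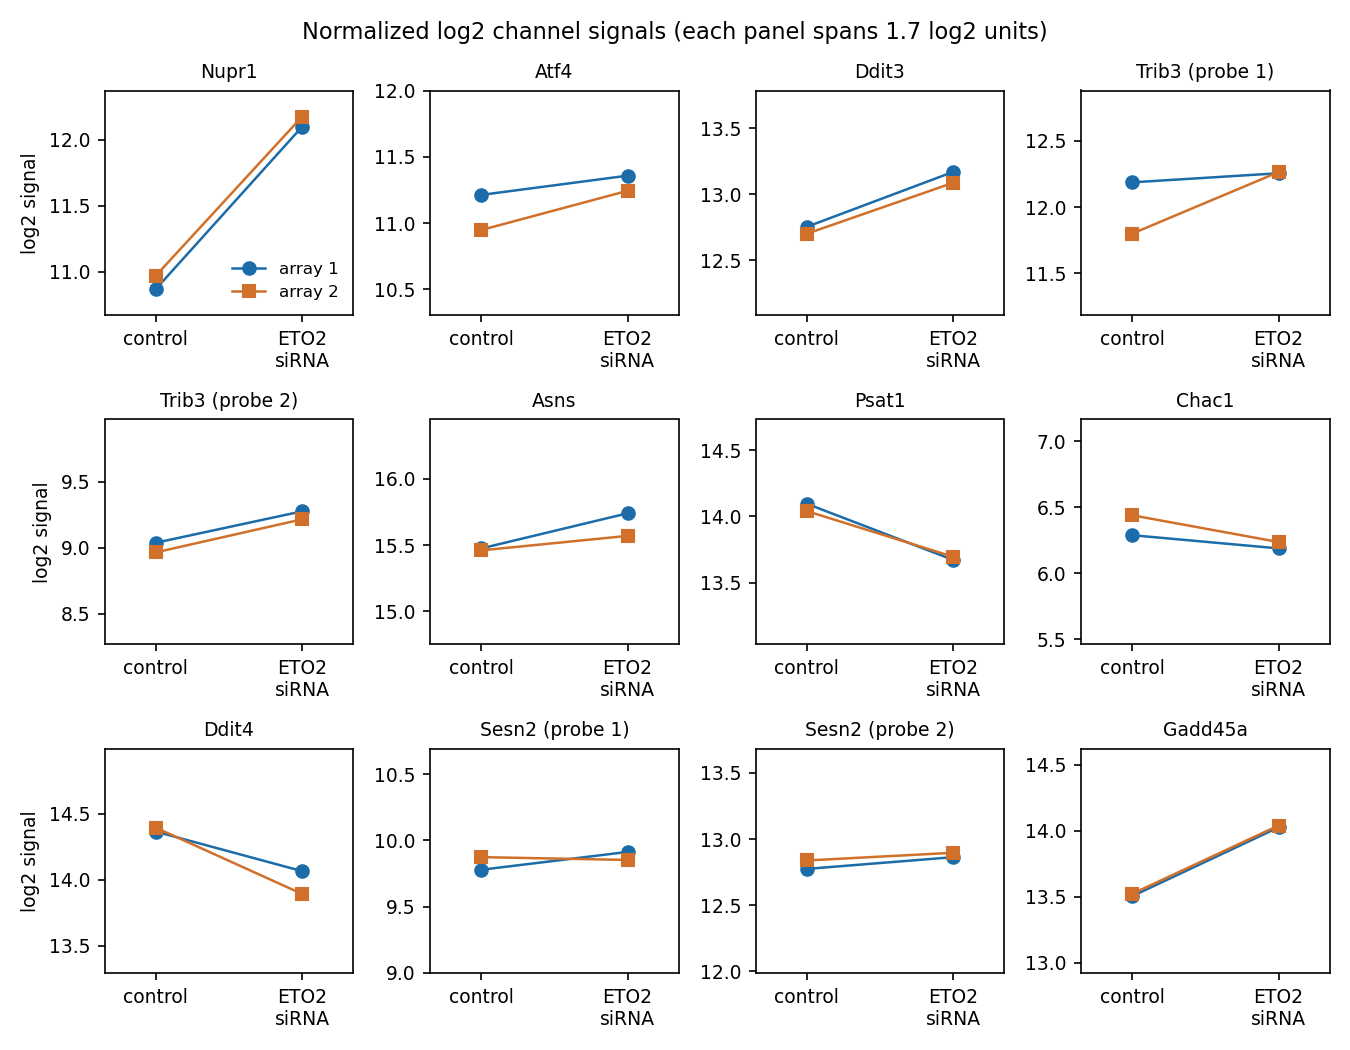
Normalized log2 signal of each member probe in the control and ETO2 siRNA channels, with one line per array and every panel spanning the same height in log2 units. The Nupr1 lines climb from 10.87 and 10.97 to 12.10 and 12.17, the lines of Psat1, Ddit4 and Chac1 slope down, and those of Sesn2 probe 1 cross.

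Across the 10 genes, 7 ratios were above 0, and the median was 0.20 against -0.02 over all genes tested. At a limma adjusted p under 0.05, 6 members were higher, where 18.4% of all genes were, and 2 were lower, where 22.3% of all genes were. At 1.5-fold on both arrays, 1 member (Nupr1) was higher, against 1.33% of all genes, and 0 were lower, against 1.24%. Since the members were chosen from this comparison, nothing is read from these counts. By probe, ETO2 siRNA lay below control without overlap for Psat1, Chac1 and Ddit4. The channels of Sesn2 probe 1 overlapped, and the other probes had ETO2 siRNA above control. No share over all probes is given beside this, so nothing is read from it either. Those above include Asns, whose control was saturated so that its direction is not settled. Those below include Chac1, whose ETO2 siRNA channel was not well above background.

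The directions of the smaller ratios rest on how the dyes were balanced. Loess bends each array's ratios to a centre of 0 at every brightness, while median centring shifts each array by 1 constant over all probes. With median centring the median of all genes tested was -0.31, and the share of higher genes among all called was 4.12% in place of 45.2%. Nupr1 was then 0.73, the only member above 0, and 1.04 above the median of all genes. Relative to that median Gadd45a was 0.24, Ddit3 was 0.16 and Atf4 was 0.06, while their ratios themselves were -0.06, -0.15 and -0.25. On the same scale Psat1 was -0.66, Ddit4 -0.69, Asns -0.16 and the Sesn2 probes -0.04 and -0.16. The Trib3 probes were 0.06 and 0.19, and Chac1 was 0.24. That median is 1 value for every brightness, and the median of the 130 listed genes was -0.46. The gaps of Psat1 and Ddit4 are therefore not read as larger falls. The scanner's own processed signals gave Nupr1 a ratio of 1.03, Asns 0.57 and Psat1 -0.16, and turned Sesn2 probe 2 to -0.08. Chac1, the dimmest, ranged from -0.45 without an offset to -0.07 with median centring.

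**Figure D3:**
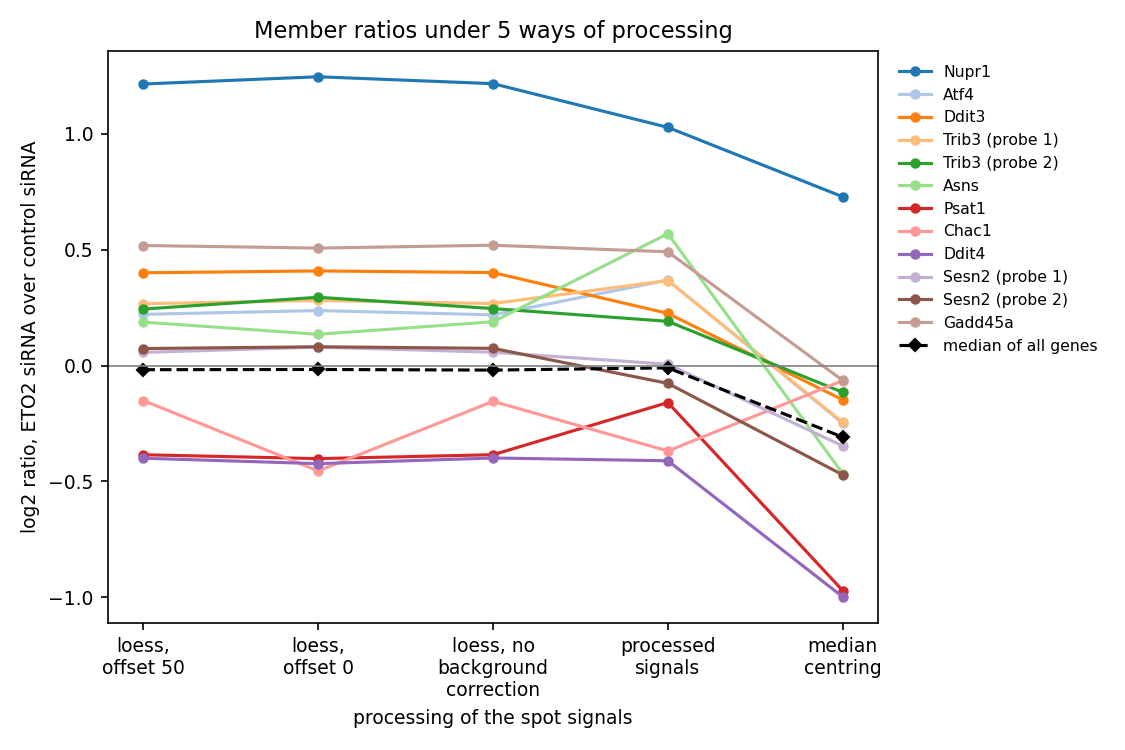
Log2 ratio of ETO2 siRNA over control siRNA of each member probe under 5 ways of processing the spots, with a dashed line for the median of all genes tested. Nupr1 runs from 1.25 down to 0.73 and stays on top, the median of all genes drops to -0.31 with median centring, and there every other member falls below 0.

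In promoter sequence the members shared a motif only in part. Promoters from 250 bases before to 50 after the transcription start were found for all 10 members in the RefSeq table of build GRCm38.p6. The core of the C/EBP-ATF response element, which ATF4 binds with a C/EBP partner, was searched as TGATGNAA on both strands. It was present in 4 of 10 members, Nupr1, Asns, Chac1 and Trib3, and in 4.0% of all 32851 promoters of this length. In Asns it lay at bases -23 to -16 from the start. In Nupr1 (-110 to -103) and Chac1 (-193 to -186) it was read as its reverse complement TTGCATCA, and in Trib3 as TTACATCA at bases 15 to 22 after the start. The GATA motif AGATAA was found in Ddit3 alone of the members and in 11.2% of all promoters, and the E-box CAGNTG in 5 members and 51.4% of all promoters, with no overlap between matches of different motifs in the members. The 250 bases before the start are given for the 3 members with the core upstream, so that its position in each can be seen. The capitals mark the core, the runs read towards the gene, and a match is a description and not a shown binding site.
Nupr1 chr7:126625471-126625720, minus strand: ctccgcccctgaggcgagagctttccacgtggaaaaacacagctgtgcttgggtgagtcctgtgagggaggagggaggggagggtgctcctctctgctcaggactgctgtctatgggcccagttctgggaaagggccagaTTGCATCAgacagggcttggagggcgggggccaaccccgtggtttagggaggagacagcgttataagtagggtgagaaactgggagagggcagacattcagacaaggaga
Asns chr6:7693210-7693459, minus strand: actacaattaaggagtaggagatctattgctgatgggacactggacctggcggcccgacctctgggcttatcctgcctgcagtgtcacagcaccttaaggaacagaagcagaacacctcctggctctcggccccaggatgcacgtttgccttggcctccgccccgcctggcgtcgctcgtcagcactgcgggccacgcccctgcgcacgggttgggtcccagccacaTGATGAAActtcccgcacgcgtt
Chac1 chr2:119350992-119351241, plus strand: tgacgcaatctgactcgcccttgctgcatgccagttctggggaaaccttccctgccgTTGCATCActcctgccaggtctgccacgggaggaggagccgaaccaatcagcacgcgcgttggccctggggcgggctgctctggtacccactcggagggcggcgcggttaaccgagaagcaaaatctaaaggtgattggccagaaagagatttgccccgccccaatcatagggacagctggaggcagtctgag

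Of the 3 members with the core upstream, only Nupr1 (1.22) had both channels within the measured range, since the Asns control was saturated and the Chac1 signal after ETO2 siRNA was not well above background. Over the 2 arrays, the genes nearest to Nupr1 by the distance between pairs of ratios were Vangl1 (0.013), Apol11b (0.037), Lrrc39 (0.071), Aqp3 (0.093) and Nxpe2 (0.11). Vangl1 is a planar cell polarity protein and Aqp3 a water and glycerol channel, and neither they nor the other 3 are members.

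Beyond the members, 147 genes around the response were listed by role, of which 130 were tested. Like the members, the lists were chosen with earlier results of these data known. The share of calls in each list is therefore a description, and no list was tested as a set. With limma, 28 of the 130 genes rose (21.5%, against 18.4% of all genes) and 36 fell (27.7%, against 22.3%). The median was 0.02 against -0.02. Only Slc6a9 rose by 1.5-fold on both arrays, and Glul and Psph fell by as much. Median centring left 5 higher and 102 lower of the same lists, and the processed signals 12 and 9. Of all 16585 genes, median centring called 464 higher and 10807 lower, so falls under it were common to most genes.

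The eIF2 kinases, which start the response, showed small changes. Eif2ak1 (HRI) fell with its brightest probe (-0.17 ± 0.014, SD, n = 2, limma adjusted p = 0.042), but its other probes read 0.39, 0.12 and -0.01. Eif2ak2 (PKR, the sensor of double-stranded RNA) fell by 0.18 on the log2 scale and Eif2ak3 (PERK, the kinase of the endoplasmic reticulum) by 0.20, with limma adjusted p of 0.031 and 0.025, while another Eif2ak3 probe read -0.04, and Eif2ak4 (GCN2, the amino acid sensor) read 0.10 without passing. Of the 17 tested genes of this list, 3 rose (17.6%) and 4 fell (23.5%), near the shares of all genes (18.4% and 22.3%). The median was -0.05. Ppp1r15a, which encodes the stress-induced GADD34 that returns eIF2 to its unphosphorylated state, had the highest ratio of the list. It read 0.42 and 0.46 on the arrays (mean 0.44 ± 0.03, SD, n = 2, limma adjusted p = 5.8e-05). Eif2b5, a subunit of the exchange factor that phosphorylated eIF2 blocks, rose by 0.36, and Impact, an inhibitor of GCN2, by 0.20. Dnajc3, an inhibitor of PERK and PKR, fell by 0.31, though its other probes ran from -0.76 to 0.02. Eif2s1, which encodes the phosphorylated subunit, read -0.12 on its brightest probe and 0.35 on another and did not pass. The remaining 8 tested genes of this list lay between -0.16 and 0.10 and did not pass, among them Eif2s2, whose control channel was saturated. With the processed signals 1 of the 17 was higher and 0 lower (median 0.007), with Eif2ak1 at -0.06, Eif2ak2 at -0.07, Eif2ak3 at -0.04 and Impact at 0.0011, and with median centring all 17 lay below 0.

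Among transcription factors that pair with ATF4 or act beside it, Atf5, itself under translational control by eIF2, rose (0.41 ± 0.10, SD, n = 2, limma adjusted p = 0.00016). Mafg rose by 0.25, with another probe at -0.05. Cebpb fell by 0.19 on the log2 scale, with another probe at 0.0023. Fos was called lower but was well above background after ETO2 siRNA on only 1 array, so its size is uncertain (-0.18, and -0.85 with the processed signals). The other 6 of 10 did not pass. The 2 rises and 2 falls were each 20% of the list, against 18.4% and 22.3% of all genes. With the processed signals 0 of 10 passed in either direction (Atf5 read 0.27), and with median centring 0 were higher and 7 lower. Atf3 and Jun did not reach the filter on dim probes and were not tested.

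Enzymes of amino acid and one-carbon synthesis included calls in both directions at shares near those of all genes. Of 13 tested, 3 rose (23.1%, against 18.4% of all genes) and 4 fell (30.8%, against 22.3%). The falls include Gpt2, which was not well above background after ETO2 siRNA on either array and so has only a bound there. Shmt2 and Mthfd2, the mitochondrial enzymes that draw one-carbon units from serine, rose by 0.50 ± 0.02 and 0.49 ± 0.07 (SD, n = 2), with limma adjusted p of 2.1e-05 and 2.8e-05. Psph, the last enzyme of serine synthesis and next in the pathway to Psat1, fell by 0.65 (log2, SD 0.08, n = 2, limma adjusted p = 1.9e-06), with another probe at -0.26. Glul, glutamine synthetase, read -0.75 and -0.95 on its brightest probe (limma adjusted p = 2.3e-07) and -0.16 and -0.13 on its other probes. With the processed signals 2 of the 13 were higher and 3 lower. Shmt2 and Mthfd2 then read 0.35 and 0.29, and Psph and Glul -0.37 and -0.77. With median centring 0 were higher and 8 lower. Shmt2 and Mthfd2 then read -0.12 and 0.003, and Psph and Glul -1.19 and -1.33.

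Amino acid transporters had 4 of 10 genes higher (40%, against 18.4% of all genes) and 1 lower (10%, against 22.3%). The median was 0.17. With the processed signals 2 were higher and 1 lower, and with median centring 3 were higher and 4 lower. Slc6a9, the glycine transporter that supplies haem synthesis in erythroid cells, had the highest ratio of the listed genes with loess. Its ratios were 0.82 and 0.81 (mean 0.81 ± 0.0054, SD, n = 2, limma adjusted p = 1.55e-07), and it was 0.70 with the processed signals and 0.22 with median centring. Slc38a2, the amino acid-responsive neutral transporter, rose by 0.44 on its brightest probe but unevenly (0.21 and 0.67), and its other probes read 0.18, -0.12 and -0.05. The cationic amino acid transporters Slc7a3 and Slc7a1 went in opposite directions, 0.27 and -0.27. Slc7a3 was above Slc6a9 with the processed signals (0.94) and with median centring (0.30).

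Of 12 aminoacyl-tRNA synthetases, the enzymes that charge tRNA and that ATF4 induces in many cells, 5 rose and 1 fell. These were 41.7% and 8.3%, against 18.4% and 22.3% of all genes, and the median was 0.12. The 1 that fell was Lars (-0.23), whose other probes read 0.46 and 0.40, and with the mean of all probes 7 were higher and 0 lower. Lars is named after its values were seen. Gars, Nars, Eprs and Iars rose by 0.50, 0.39, 0.37 and 0.35. All of these had the larger ratio on array 2, such as 0.35 and 0.65 for Gars. None of the 12 passed with the processed signals, although 11 of 12 were still above 0, and with median centring 11 of 12 were below 0.

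Other known ATF4 or CHOP targets gave 2 rises (13.3%, against 18.4% of all genes) and 6 falls (40%, against 22.3%) among 15 tested. The median was -0.04. With the processed signals 2 were higher and 2 lower, and with median centring 0 were higher and 12 lower. The falls with limma include Ero1a, whose ratios were -0.45 on array 1 and 0.001 on array 2. Eif4ebp1, the translation inhibitor 4E-BP1, rose on its brightest probe (0.50 ± 0.05, SD, n = 2, limma adjusted p = 1.9e-05), with another probe at 0.04. Hmox1, the haem-degrading oxygenase, fell by 0.50, Txnip, an inhibitor of thioredoxin, by 0.42, and Sqstm1, an autophagy receptor, by 0.38 on the log2 scale. With the processed signals Hmox1, Txnip and Sqstm1 read -0.20, -0.60 and -0.38.

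The genes of the unfolded protein response that ATF6 and IRE1 control, which run beside the PERK branch, were mostly lower. Of 19 tested, 12 fell (63.2%, against 22.3% of all genes) and 1 rose (5.3%, against 18.4%), with a median of -0.21. Dnajb9, a chaperone partner of BiP and target of IRE1, fell by 0.56 (log2, SD 0.05, n = 2, limma adjusted p = 6.8e-06), and its other probes read -0.27 and -0.66. Sdf2l1, a folding factor of the endoplasmic reticulum, fell by 0.47, Creld2, another stress-induced factor there, by 0.34, and Sel1l, part of the degradation machinery, by 0.34, though other probes of Sel1l read -0.01 and -0.04. With the processed signals 17 of 19 stayed below 0, but only 3 passed. With median centring all 19 were lower, as were 10807 of all 16585 genes.

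**Figure D4:**
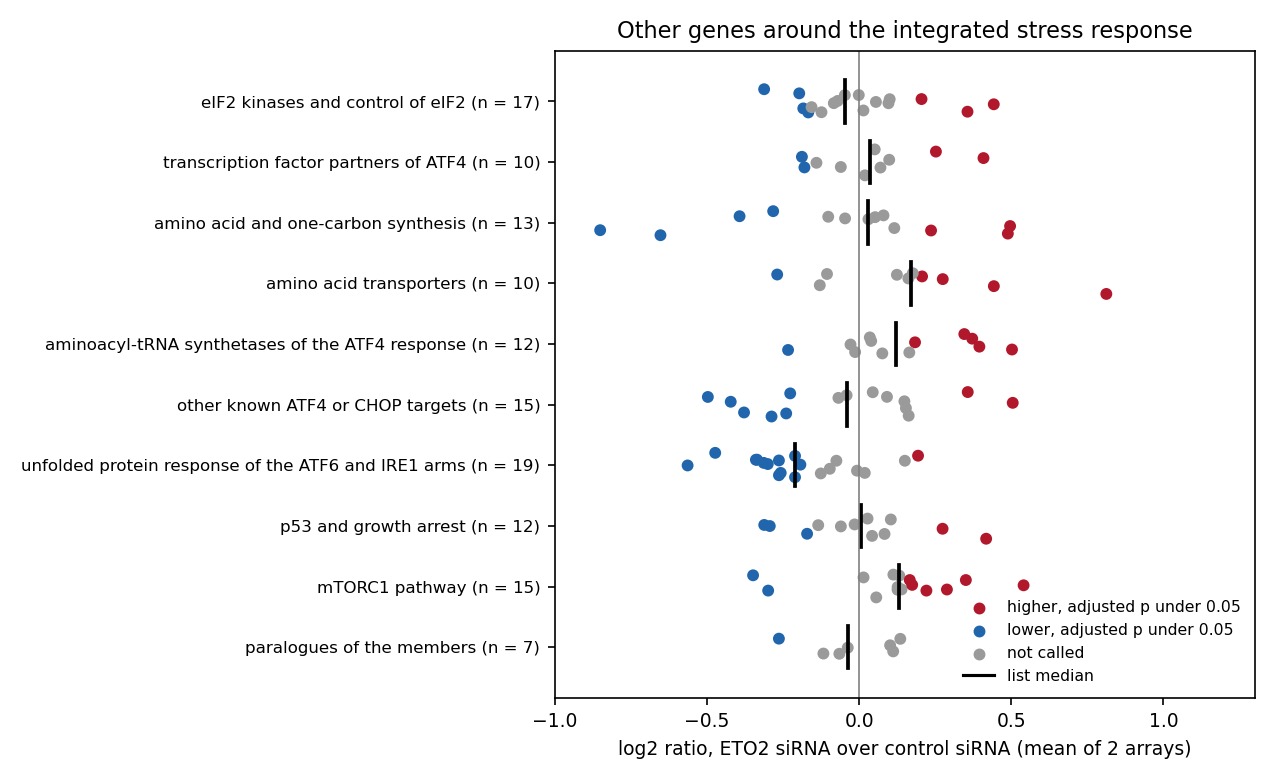
Mean log2 ratio of ETO2 siRNA over control siRNA for each of the 130 tested listed genes, by list, with colour for limma calls at an adjusted p under 0.05 and a bar at each list's median. The list of the ATF6 and IRE1 arms has its median at -0.21 and the amino acid transporters at 0.17. With median centring all 10 list medians fall below 0, as does the median of all genes (-0.31).

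Genes linked to the remaining members by pathway were listed too. In the p53 and growth arrest list, to which Gadd45a relates, 2 of 12 rose (16.7%) and 3 fell (25%). These were near the shares of all genes (18.4% and 22.3%). With the processed signals 2 were higher and 0 lower, and with median centring 0 were higher and 11 lower. Phlda3, a p53-induced inhibitor of AKT, rose by 0.42 and Zmat3 by 0.27, while the cell cycle inhibitor Cdkn1a fell by 0.29 and Btg1 by 0.31 on the log2 scale, with another Btg1 probe at 0.16. In the mTORC1 list, to which Ddit4 and Sesn2 relate, 6 of 15 rose (40%) and 2 fell (13.3%), against 18.4% and 22.3% of all genes. The median was 0.13 (0.04 with the processed signals). The rises include Mtor (0.29) and Deptor (0.17), whose other probes read -0.49 and -0.01, and Nprl3, whose other probe read 0.26. With the mean of all kept probes 6 were higher and 2 lower. Akt1s1, an inhibitory subunit of mTORC1, rose by 0.54 (SD 0.11, n = 2, limma adjusted p = 1.4e-05) and Nprl3, a nutrient-sensing repressor that adjoins the alpha-globin genes, by 0.35. With the processed signals 3 were higher and 0 lower, and with median centring 2 were higher and 11 lower. Tsc2 fell by 0.30 (-0.04 with the processed signals) and Depdc5, which forms a complex with Nprl3, by 0.35 on its brightest probe, while another read -0.03. Of 7 tested paralogues of the members, 0 rose (against 18.4% of all genes) and 1 fell with limma (14.3%, against 22.3%). It was Gadd45g (-0.26 ± 0.11, SD, n = 2, limma adjusted p = 0.0046), against 0.52 for Gadd45a. With the processed signals Gadd45g (-0.21) did not pass. The brightest probes of Gadd45b and Sesn1 read 0.14 and -0.07. Another Gadd45b probe read 0.33, and the other Sesn1 probes read 0.38 and 0.09. With the mean of all kept probes, or with an offset of 0, 1 paralogue was higher and 1 lower.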

How the data were processed

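The scanner software was Agilent Feature Extraction 9.1.3.1, which took background locally, per the file headers. The deposited mean and background intensities are linear and not normalized. The log10 ratio (red over green) was computed by that software from its processed signals, per the file headers, and the authors' deposited ratio table holds the same log10 values, rounded. No source used here gives the build behind the probe design. Intensities were corrected by normexp (offset 50) and normalized by loess in limma 3.58.1 (R 4.3.3), with 1639 control features at weight 0. Outlier spots (10 and 4) were left out, and spots of a probe were averaged. A gene was read by its brightest kept probe. Log2 ratios were tested against 0 in a two-sided test (lmFit, eBayes), adjusted by Benjamini-Hochberg over 16585 genes. The residual degree of freedom is 1 and eBayes added 13.6, so a p-value rests mostly on the spread pooled over genes and little on the gene's own. A sign permutation of 2 arrays cannot go below 0.5. Probe names were updated through RefSeq GRCm38.p6 (24375 by accession, 6301 by symbol, 2426 by synonym, 8072 unmatched). Channel levels were scaled between arrays (Aquantile). Listed genes named are up to 4 per list with the largest change past the threshold, and all kept genes of eIF2 control. Gpt2, Lars, Ero1a, Mtor, Deptor, Gadd45b and Sesn1 are also named, after their values were seen, for a dim channel or for probes or arrays that differed. The members and lists were chosen with earlier results of these data known. Scripts were tested on simulated data. Some marker results are not reported here.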

Additional observations from a re-analysis of the deposited data

How the results depend on the processing

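The main counts were 3051 higher and 3696 lower of 16585 genes, 220 and 205 at 1.5-fold on both arrays, and 28 and 36 among listed genes. Median centring gave 464 and 10807, 33 and 2752, and 5 and 102. Processed signals gave 1195 and 1277, and 12 and 9 listed, and the deposited ratio table gave 1144 and 1222, and 9 and 8 listed. An offset of 0 gave 317 genes lower by 1.5-fold, and leaving out saturated probes gave 109 higher by 1.5-fold. Leaving out 1 array gave 268 to 377 genes higher and 284 to 359 lower by 1.5-fold. Median centring turned the sign of Atf4 (-0.25), Ddit3 (-0.15), both probes of Trib3 (-0.25 and -0.12), Asns (-0.47), both probes of Sesn2 (-0.35 and -0.47) and Gadd45a (-0.064). The processed signals and the deposited table put Sesn2 probe 2 at -0.077. Without array 1, Sesn2 probe 1 read -0.02. The causes were not tested. The number of arrays, a fixed dye orientation, a saturated Asns control and a dim Chac1 limit the precision.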
